A study of Mus musculus with 4 samples.

Results

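Transcripts of 38 genes of the p53 response and of apoptosis were measured in otocysts of mouse embryos in which the genes of the T-box transcription factors Tbx2 and Tbx3 were targeted in the otic region. The genes were taken by name from the array's annotation and fell into 17 genes of p53 and its targets, 12 of the Bcl2 family, and 9 caspases and caspase partners. They had 50 probes out of 39429, and 35 of the 38 genes were tested among the 18416 genes tested in all. The choice of genes used no measured value of these arrays, but it was made with other results of the arrays known.

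The otocyst is the epithelial vesicle from which the inner ear forms. Mutant embryos (Tbx2/3cDKO) carried Pax2-cre, a Cre recombinase under Pax2 control that acts in the otic region and in some other tissues, on a background of Tbx2(fl/fl) and Tbx3(fl/fl), the floxed alleles of both T-box genes. Control embryos were Tbx2(fl/?) and Tbx3(fl/?), with no Cre listed and the second allele of each gene not stated. All embryos were of the NMRI strain and were dissected at E10.5. Each of 4 arrays held 1 mutant and 1 control RNA of 1 sex, female in replicates 1 and 2 and male in replicates 3 and 4, and the dyes were swapped within each sex. The samples of the 2 sexes came from different embryos, but the labels do not say whether those of 1 sex did, or whether embryos were pooled. The p-values rest on the spread between these samples alone, with each gene's spread moderated towards that of all genes tested. In bulk RNA, fewer cells of a type and less RNA per cell cannot be told apart.

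The transcription factor p53 accumulates when DNA is damaged or the cell is otherwise stressed, and it activates genes that halt the cell cycle, repair DNA or start cell death. Its protein is held down by Mdm2, a ubiquitin ligase that is itself a p53 target. In the mitochondrial route of apoptosis, BH3-only proteins act on the antiapoptotic and the pore-forming members of the Bcl2 family, cytochrome c leaves the mitochondria, and Apaf1 and Casp9 start the caspase cascade. Death receptors such as Fas start it through Casp8. Cells die by apoptosis in the normal otic epithelium while the vesicle closes and neuroblasts leave it. Most of this control acts on proteins, which RNA levels do not show.

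Of the 35 genes tested, 4 were higher in mutant otocysts and 1 was lower at an adjusted p under 0.05 (limma, Benjamini-Hochberg over all genes). The higher genes were Btg2, Plk2, Trp53inp1 and Xiap, and the lower gene was Phlda3. Among all genes tested, 13.5% were higher and 10.1% lower, 23.6% in either direction, so the 14.3% of the members that were called did not exceed the share over the array. The members' median log2 ratio of mutant over control was 0.00, as it was over all genes, and their median absolute log2 ratio was 0.08, against 0.09 over all genes. None of the 35 reached a 1.5-fold difference, which 5.27% of all genes did.

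**Figure D1:**
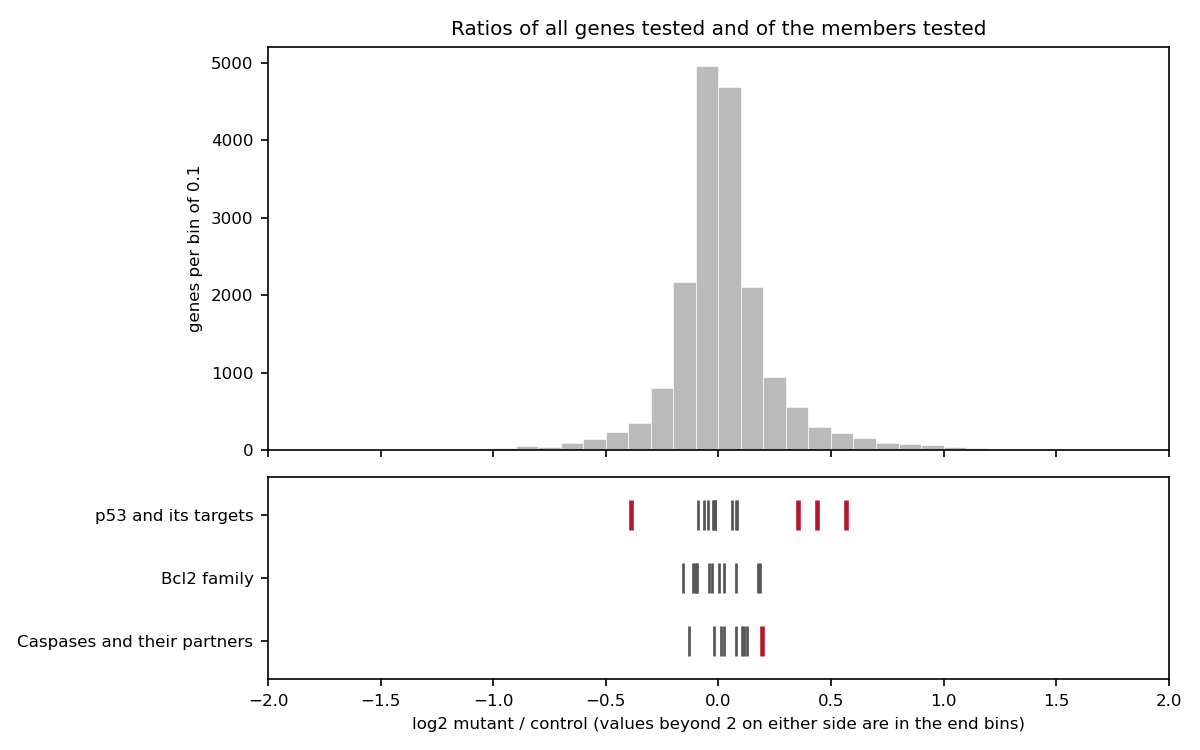
Distribution of log2 ratios of mutant over control. The upper panel counts all 18416 genes tested in bins of 0.1, and the lower panel marks each tested member by group, in red where the adjusted p was under 0.05; most members lie near 0, and the 5 red marks lie between -0.39 and 0.57.

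Each gene was read by its brightest 60-base probe. The first 30 bases of the probes of the 5 called genes are shown 5′ to 3′, because the calls rest on these stretches of transcript alone, together with the second Trp53inp1 probe, which gave another value. The positions are those of the array files (mm9).
Btg2 probe, chr1:135972094-135972153, minus strand: ttaaatcttcaattctttactgtccttgtt
Plk2 probe, chr13:111190915-111190974, plus strand: tgtggttggaaaagtgcattccttgttaat
Trp53inp1 probe used, chr4:11101174-11101233, plus strand: gtgtgtttatgggcacaatgttttctctca
Trp53inp1 second probe, chr4:11092530-11092589, plus strand: aactcctgtcctggtctcagtgaggcgagt
Phlda3 probe, chr1:137665642-137665701, plus strand: gtaagggttggccctttaccatttcatgct
Xiap probe, chrX:39462720-39462779, plus strand: cgtttatggaaactcctttatggaattgct

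The promoters of the members were read for the sequence that p53 recognises. RefSeq promoters (GRCm38.p6, 250 bases before to 50 after each start) were found for 33 of the 38 genes. The p53 consensus half-site, which reads the same on both strands, stood in a promoter of 8 of 14 matched genes of p53 and its targets, 2 of 10 of the Bcl2 family and 1 of 9 of the caspase group. It stood in 9.55% of 27025 genes with a promoter, or 8.36% of all 32851 promoters, against 9 of the 18 promoters of the p53 group. Among these, the promoters of Aen overlap and share the same match, which is counted for each of them. None of the 4 called genes with a promoter held it, and Trp53inp1 had no entry. The windows below show the match in capitals with 10 bases on either side, written along the gene's strand and with the position of the first capital relative to the start, for 4 p53 targets and Bax, all of them genes whose RNA did not pass the test.
Mdm2, from base -186: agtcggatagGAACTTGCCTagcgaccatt
Ccng1, from base -185: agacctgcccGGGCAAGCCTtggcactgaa
Sesn1, from base -173: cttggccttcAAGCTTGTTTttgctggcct
Ei24, from base -10: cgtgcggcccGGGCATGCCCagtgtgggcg
Bax, from base -201: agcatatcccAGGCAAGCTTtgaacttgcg
A pair of such matches 0 to 13 bases apart was in no member and in 20 genes in all. No mismatch was allowed in either match, so pairs with a mismatch were not searched for. The T-box element AGGTGTGA, searched on both strands, stood in 1.48% of all genes and in 1 member, the DNA polymerase gene Polk. A match is a stretch of letters and not a measured binding site.

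The labels were checked on the targeted genes, the agreement between arrays and the tissue. The Tbx3 probe had a log2 ratio of mutant over control of -3.43 ± 0.16 (SD, n = 4 arrays), a 10.8-fold lower level in mutant otocysts, and between -3.61 and -3.25 on single arrays. The Tbx2 probe gave 0.06 ± 0.23 (limma adjusted p = 0.650), and it does not test the deletion, since no source used here places the floxed part relative to the probe. Across genes, ratios of 2 arrays correlated with r between 0.662, for replicates 1 and 4, and 0.857, for replicates 1 and 2; genes are not independent replicates. Between 58.4% and 63.2% of spots were well above background in a channel. Precision is limited by there being 4 arrays.

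Marker genes of several cell types differed between the genotypes. Of 16 otic epithelium markers 1 was higher and 11 lower. Ranges in this paragraph are of the log2 of a list's mean unlogged level, in which the brightest probes weigh most. For the otic epithelium it spanned 12.98 to 13.17 in mutant and 13.85 to 13.97 in control channels. Of 13 neuroblast and neuron markers tested, 10 were higher and 0 lower (10.87 to 11.15 in mutant, 10.24 to 10.37 in control). Erythroid markers were higher for 12 of 14 genes (16.26 to 16.37 in mutant, 14.74 to 15.36 in control), endothelial markers for 11 of 11 (11.28 to 11.39 in mutant, 10.702 to 10.85 in control), periotic mesenchyme markers for 9 of 12 (13.59 to 13.67 in mutant, 13.12 to 13.29 in control) and macrophage markers for 8 of 12 (9.26 to 9.68 in mutant, 8.98 to 9.12 in control). Of 5 hindbrain markers tested, 1 was higher and 1 lower. Erg, Hoxb1, Pax6, Pax7 and Tcf21 were not well above background in any channel. Immediate early and stress genes were higher for 7 of 12 (11.77 to 11.90 in mutant, 11.48 to 11.73 in control), and 0 of 17 mitosis genes were called. The part of these differences in the ratios of the members was not tested.

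**Figure D2:**
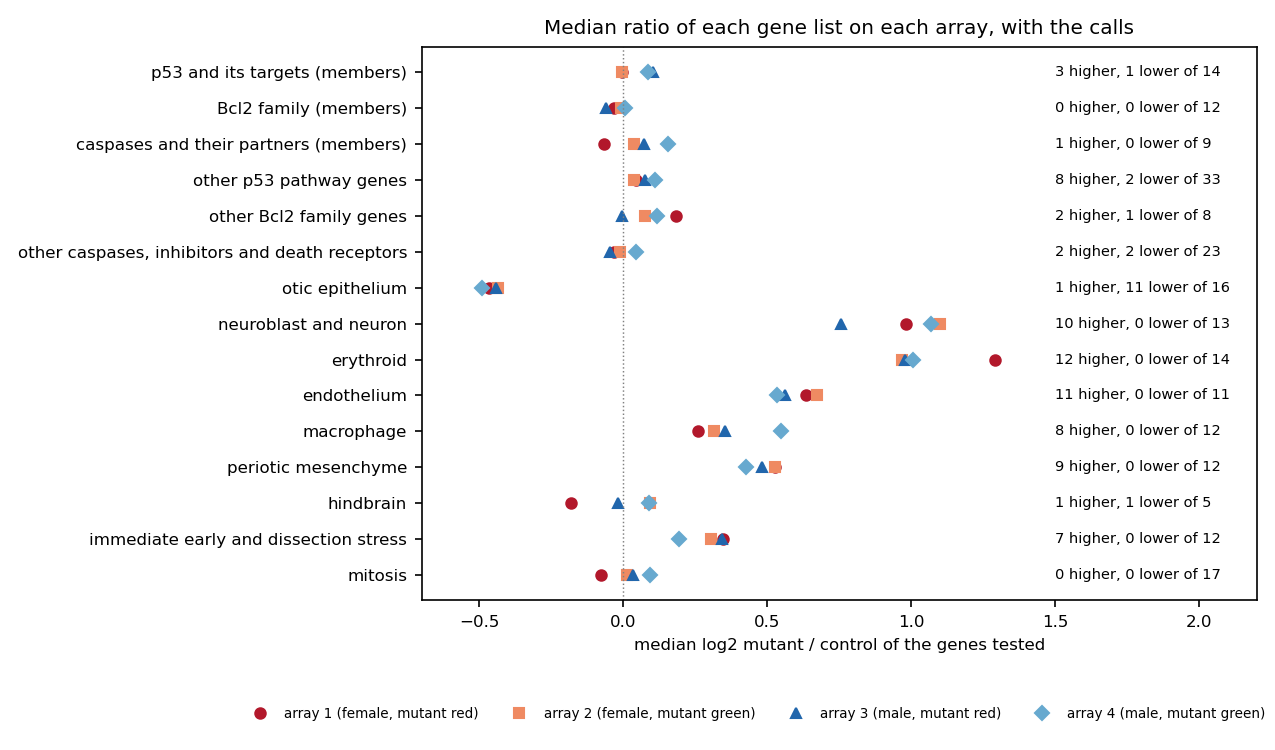
Median log2 ratio of mutant over control of each gene list on each of the 4 arrays, with the number of genes higher and lower among those tested. The medians of the 3 member groups and the mitosis genes run from -0.08 (mitosis, array 1) to 0.15 (caspase group, array 4). The neuroblast, erythroid and endothelial lists lie above 0.5 and the otic epithelium list below -0.4 on all arrays.

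Among p53 and its targets, 3 genes were higher, 1 was lower and 10 did not pass the test, out of 14 tested. The called share was 28.6%, against 23.6% of all genes, and the higher share was 21.4%, against 13.5%. The group was not tested as a set. The group's median log2 ratio was -0.02. The transcript of p53 itself, Trp53, had channel levels of 12.01, 12.04, 12.05 and 12.53 in mutant samples of replicates 1 to 4 (log2, normalized). Control samples had 11.86, 12.11, 12.02 and 12.69. Both channels of replicate 4 were high, and the genotypes overlapped. The log2 ratio was -0.02 ± 0.14 (SD, n = 4 arrays; 95% interval -0.14 to 0.11; limma adjusted p = 0.870).

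Btg2, an antiproliferative gene that p53 activates and that also marks neurogenic progenitors in the mouse neural tube, had the largest ratio of the group. Its levels were 11.79, 11.69, 11.73 and 11.78 in mutant samples, against 11.19, 11.18, 11.08 and 11.27 in control samples. Every mutant level lay above every control level, by at least 0.42. The log2 ratio was 0.57 ± 0.07 (SD, n = 4 arrays; 95% interval 0.45 to 0.68), a 1.48-fold difference (limma adjusted p = 0.00036). The neuroblast and neuron markers were higher in the same samples, and their part in this ratio was not tested.

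Plk2, a polo-like kinase that is a p53 target and is also induced by serum and by neuronal activity, was higher too. Its levels were 11.12, 11.15, 11.20 and 11.27 in mutant samples, against 10.83, 10.82, 10.89 and 10.78 in control samples. The genotypes did not overlap. Its log2 ratio was 0.35 ± 0.09 (SD, n = 4 arrays; 95% interval 0.23 to 0.48), a 1.28-fold difference (limma adjusted p = 0.00375). Plk2 and Btg2 are both known as genes of the immediate early response, whose list was higher for 7 of its 12 tested genes, and the part of that response in their ratios was not tested.

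Trp53inp1, a stress protein that promotes p53 activity and cell death, varied more between arrays than the other called genes. Its levels were 12.01, 12.01, 12.37 and 12.57 in mutant samples, against 11.94, 11.62, 11.82 and 11.84 in control samples. The genotypes did not overlap, but the gap was only 0.06, and the ratio was 0.06 on replicate 1 and 0.73 on replicate 4. Over the arrays it averaged 0.44 ± 0.28 (SD, n = 4 arrays; 95% interval 0.21 to 0.66; 1.35-fold; limma adjusted p = 0.0171). Without replicate 3 it was 0.31 with an adjusted p of 0.0818. The second kept probe of the gene, some kilobases away, gave 0.02 (limma adjusted p = 0.837). It was dimmer, with a mean log2 intensity of 7.58, against 12.02 for the probe used. The call thus rests on 1 of the gene's 2 probes. The mean of both gave 0.23 and still passed the threshold.

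Phlda3, a small protein with a pleckstrin homology domain that p53 induces and that holds back Akt signalling, was the lower gene. Its levels were 10.87, 10.92, 10.88 and 10.84 in mutant samples, against 11.27, 11.33, 11.26 and 11.18 in control samples. The genotypes were apart by 0.27, and the 4 ratios spanned no more than -0.42 to -0.35. Mutant over control, this gave a log2 ratio of -0.39 ± 0.03 (SD, n = 4 arrays; 95% interval -0.50 to -0.27), a 1.31-fold lower level (limma adjusted p = 0.00179). The otic epithelium markers were lower in the same samples, and their part in this ratio was not tested.

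Among the 10 genes of the group that were not called, Mdm2, the ubiquitin ligase of p53, had levels of 12.63, 12.70, 12.77 and 12.84 in mutant samples, against 12.62, 12.71, 12.67 and 12.65 in control samples, and a log2 ratio of 0.08 ± 0.09 (SD, n = 4 arrays; 95% interval -0.06 to 0.21). The genotypes overlapped. Ccng1, the cyclin G1 gene, had ratios of -0.28, -0.18, 0.00 and 0.39 on replicates 1 to 4, negative in the female pairs, and a mean of -0.02 ± 0.29. Sesn1, a sestrin that lowers mTORC1 signalling, had 0.08 ± 0.09.

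The remaining ones included Aen, a nuclease (-0.05 ± 0.09), Tnfrsf10b, the TRAIL receptor (0.06 ± 0.07), and Zmat3, an RNA-binding protein (-0.06 ± 0.17). Also among them were Polk, which copies damaged DNA (-0.09 ± 0.25), and Ei24, a protein of the endoplasmic reticulum (-0.03 ± 0.04). The last was Gtse1, a microtubule-binding protein of dividing cells (-0.02 ± 0.10). These are log2 ratios with SDs over 4 arrays. Over the 10 genes not called, the 95% intervals ran from -0.32, for Polk, to 0.22, for Ccng1. Aen's second probe gave -0.04 and that of Polk -0.06.

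The other 3 genes of the group were not tested. Fas, the death receptor, and Eda2r, a receptor for ectodysplasin A2, were not well above background in any of the 8 channels, so no fold is given. Sesn2, the second sestrin, had non-uniform spots on replicates 2 and 4, and the other arrays gave log2 ratios of 0.04 on replicate 1 and -0.18 on replicate 3. With those spots kept, replicates 2 and 4 gave -0.92 and -0.76, and the mean was -0.46 (limma adjusted p = 0.00226). The low ratios stood on the arrays whose spots were marked as non-uniform and on which the mutant RNA was green.

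**Figure D3:**
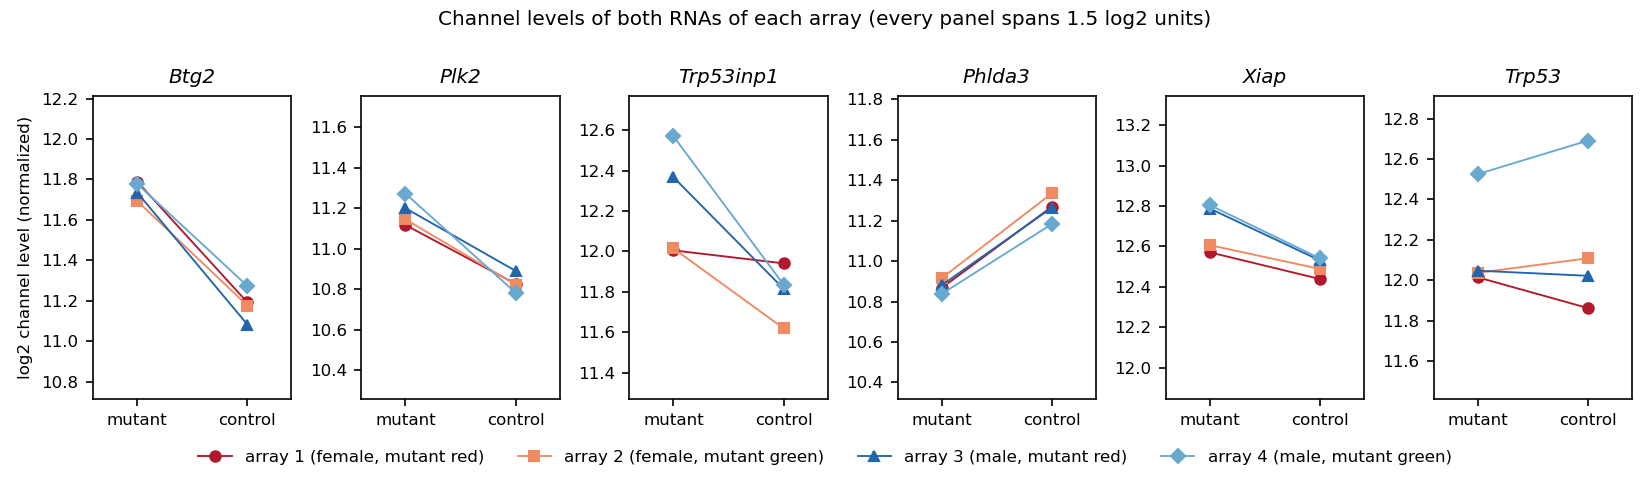
Channel levels (log2, normalized) in the mutant and the control RNA of each array, joined per array, for the 5 called genes and Trp53; every panel spans 1.5 log2 units. The lines of Btg2, Plk2 and Phlda3 run nearly parallel, those of Trp53inp1 fan out, and those of Trp53 have both directions.

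No gene of the Bcl2 family was called by limma, with 0 higher and 0 lower of 12 tested, against 23.6% called over all genes. The same held with the intensity trend and robust moderation. At an unadjusted p under 0.05 there were 2, against 35.4% of all genes. The group's median log2 ratio was -0.04, and single genes lay between -0.16 and 0.18. With sex added to the fit, Mcl1 and Bik were called higher (adjusted p of 0.0234 and 0.0304) and Bcl2 lower (0.0305). That fit called more genes over the whole array, 18.6% higher and 14.4% lower, 32.9% in either direction, so 3 of 12 did not exceed its share. The 95% intervals of the 12 genes ran from -0.30, for Bcl2, to 0.36, for Mcl1, which corresponds to at most 1.29-fold in either direction.

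Among the antiapoptotic genes, Bcl2 had levels of 9.15, 8.74, 8.96 and 8.65 in mutant samples, against 9.07, 8.98, 9.04 and 9.04 in control samples. Replicates 2 and 4 were the low ones in mutant samples, and replicate 1 lay above every control level. On these low replicates the mutant RNA was green. The log2 ratio was -0.16 ± 0.21 (SD, n = 4 arrays, limma adjusted p = 0.0962, or 0.190 without the dye term). Mcl1, a short-lived antiapoptotic protein, had ratios of -0.08, 0.13, 0.30 and 0.36 and a mean of 0.18 ± 0.20 (limma adjusted p = 0.157). Its second probe gave 0.10. Bcl2l1, which encodes Bcl-xL, had -0.09 ± 0.12, and its second, dimmer probe gave -0.19 (mean log2 intensity 8.46, against 13.08).

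The pore-forming genes Bax and Bak1 had log2 ratios of -0.10 ± 0.10 and -0.10 ± 0.08. Bax levels were 11.64, 11.73, 12.06 and 11.35 in mutant samples, against 11.73, 11.87, 12.28 and 11.33 in control samples. The spread between arrays was larger than that between the genotypes of an array. Bak1 was lower in the mutant on all 4 arrays, and its levels overlapped.

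The BH3-only genes, whose products set off the pore-forming proteins or block the antiapoptotic ones, went to both sides of 0. Bik had the highest mean, 0.18 ± 0.11, with ratios of 0.27, 0.21, 0.02 and 0.23 (limma adjusted p = 0.0694). Its mutant levels were 9.54, 9.54, 9.37 and 9.40, against 9.27, 9.33, 9.35 and 9.16 in control samples, and did not overlap, with a gap of 0.02. Bid, which links death receptors to mitochondria, was lower on all arrays at -0.11 ± 0.08, again without overlap (limma adjusted p = 0.191). Its ratio on replicate 1 was only -0.008, and the genotypes were apart by no more than that.

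Bbc3 (Puma) and Pmaip1 (Noxa), the BH3-only genes that p53 is best known to activate, had 0.08 ± 0.14 and -0.03 ± 0.19. Bbc3 ratios were -0.03, 0.27, 0.10 and -0.03, and those of Pmaip1 were -0.25, -0.11, 0.09 and 0.16. Neither had a sign shared by all arrays. Bcl2l11 (Bim) had -0.04 ± 0.14, Bad 0.00 ± 0.07 and Bmf 0.02 ± 0.05 (SD, n = 4 arrays each).

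In the caspase group, 1 gene of 9 was higher and 0 were lower, a called share of 11.1%, against 23.6% of all genes. The median log2 ratio was 0.08, or 0.01 without replicate 4. The higher gene was Xiap, which binds and inhibits caspases. Its levels were 12.57, 12.61, 12.79 and 12.80 in mutant samples, against 12.44, 12.49, 12.53 and 12.54 in control samples. The genotypes did not overlap, with a gap of 0.03. The log2 ratio was 0.19 ± 0.08 (SD, n = 4 arrays; 95% interval 0.06 to 0.32), a 1.14-fold difference (limma adjusted p = 0.0458). The call was lost under 7 of 15 alternatives, among them the arrays without replicate 1, 3 or 4, at adjusted p of 0.110, 0.255 and 0.149.

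Diablo, the mitochondrial protein that displaces Xiap from caspases, was lower on all 4 arrays and did not pass the test. Its levels were 13.31, 13.22, 13.30 and 13.26 in mutant samples, against 13.40, 13.37, 13.44 and 13.42 in control samples. They did not overlap, and the log2 ratio was -0.13 ± 0.03 (SD, n = 4 arrays; limma adjusted p = 0.103). The second Diablo probe gave -0.19 (limma adjusted p = 0.101).

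Of the caspases, the initiators Casp2, Casp8 and Casp9 had log2 ratios of 0.10 ± 0.22, 0.08 ± 0.06 and 0.02 ± 0.10. Casp2 ratios were -0.12, -0.02, 0.17 and 0.37 on replicates 1 to 4. The executioner Casp6 had 0.13 ± 0.09 and was higher on all 4 arrays (limma adjusted p = 0.105). Apaf1, the scaffold of the apoptosome, had 0.11 ± 0.19, and Cycs, cytochrome c, -0.02 ± 0.12. Birc5 (survivin), which acts in mitosis as well as against caspases, had 0.01 ± 0.13, and its other probes gave -0.06 and -0.09, beside mitosis genes of which 0 of 17 were called.

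**Figure D4:**
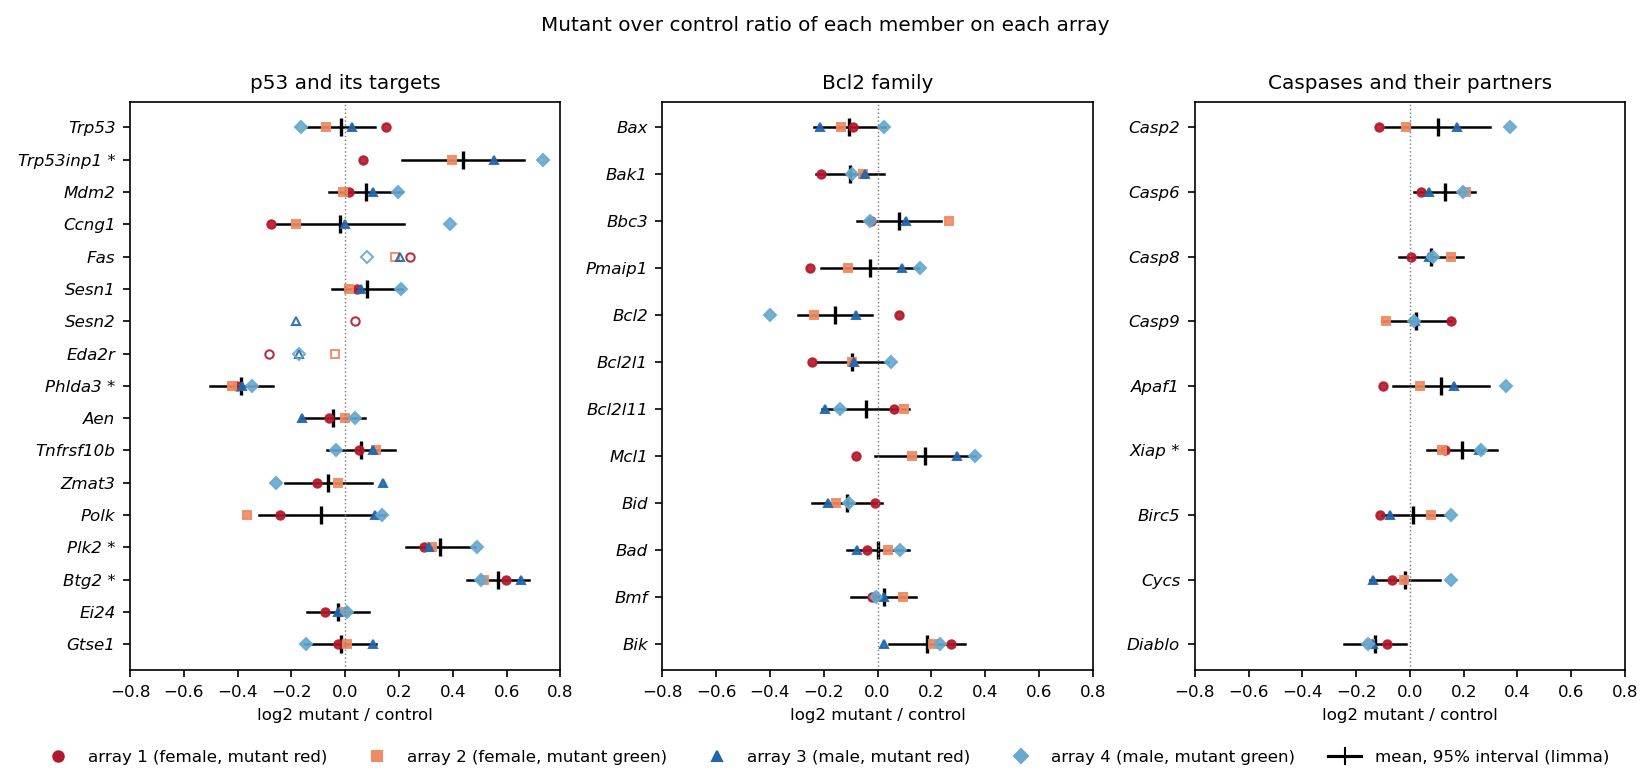
Log2 ratio of mutant over control for each of the 38 genes on each array, with the mean and its 95% interval from limma; open symbols are genes that were not tested, and asterisks mark an adjusted p under 0.05. The 4 symbols of Btg2, Plk2 and Phlda3 keep to 1 side of 0. Those of Trp53inp1, Xiap, Sesn1, Bik, Casp6, Casp8, Bak1, Bid and Diablo do so too, some of them close to 0. Those of the other genes tested straddle it.

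Of the 35 genes tested, 8 had mutant and control levels that did not overlap, against 23.3% of all genes. Mutant levels were above all control levels for Btg2, Plk2, Trp53inp1, Xiap and Bik, against 13.1% of all genes, and below them for Phlda3, Bid and Diablo, against 10.2%.

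The difference between the sexes was tested as an interaction in the same model, with 1 residual degree of freedom per gene. No member passed it, and 2 of all genes did, or 0.0109%; 8 of the 35 members had an unadjusted p under 0.05, against 15.5% of all genes. Among the called genes, Btg2 had log2 ratios of 0.58 in male pairs and 0.56 in female pairs, and Phlda3 had -0.36 in male pairs and -0.41 in female pairs. Plk2 had 0.40 in male pairs and 0.31 in female pairs, and Xiap 0.26 in male pairs and 0.13 in female pairs. Trp53inp1 had 0.64 in male pairs and 0.23 in female pairs. Its male minus female difference, 0.41, had an adjusted p of 0.143. Polk, at 0.13 in male pairs and -0.30 in female pairs, had the same adjusted p.

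Other genes of the 3 groups, from lists that do not share members with the 38, gave counts for the wider pathways. Of 33 further p53 pathway genes tested, 8 were higher and 2 lower, with a median log2 ratio of 0.03. The called share was 30.3%, against 23.6% of all genes, and the higher share was 24.2%, against 13.5%. The 4 with the smallest adjusted p were Trp53i11 (0.56 ± 0.11, limma adjusted p = 0.00062), Thbs1, which encodes the matrix protein thrombospondin and is also a gene of blood vessels and mesenchyme (0.53 ± 0.15, 0.00126), Igfbp3, an IGF-binding protein (0.45 ± 0.08, 0.00144) and Trp53inp2, an autophagy protein (0.37 ± 0.09, 0.00373). All 4 were higher on every array. The endothelial and mesenchymal markers were higher in the same samples, and their part in these ratios was not tested.

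The lower p53 pathway genes, named after their values were seen, were Cdkn1a and Dcxr. Cdkn1a, the p21 cell cycle inhibitor that p53 activates and T-box factors can repress, had ratios of -0.11, -0.30, -0.30 and -0.36 and a mean of -0.27 ± 0.11 (limma adjusted p = 0.0135). Its second, dimmer probe gave -0.06 (limma adjusted p = 0.645), the mean of both gave -0.16 (limma adjusted p = 0.116), and without replicate 3 the adjusted p was 0.106. Dcxr, a carbonyl reductase, had -0.26 ± 0.08 (limma adjusted p = 0.0122), and 0.0992 without replicate 3.

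Of 8 further Bcl2 family genes tested, 2 were higher and 1 lower, or 37.5% called, against 23.6% of all genes. The lower gene was Bnip3, a mitophagy receptor that hypoxia induces, at -0.39 ± 0.17 (limma adjusted p = 0.00301), and its other kept probes gave -0.40 and -0.25. Bok, a Bax relative, had 0.20 ± 0.10 (limma adjusted p = 0.0395) and Bcl2l15 had 0.31 ± 0.22 (limma adjusted p = 0.0446). Leaving out any 1 replicate for Bok, or replicate 1, 3 or 4 for Bcl2l15, ended these calls, with adjusted p up to 0.219 and 0.168. Bcl2l15 was at 0.18 without replicate 4.

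Of 23 further caspases, inhibitors and death receptors tested, 2 were higher and 2 lower, with a median of -0.02. The called share was 17.4%, against 23.6% of all genes. Tnfrsf21, the death receptor DR6, had 0.39 ± 0.09 (limma adjusted p = 0.00308), with ratios of 0.33, 0.42, 0.50 and 0.30. It is also expressed by neurons, whose markers were higher in the same samples, and their part in this ratio was not tested. Endog, a mitochondrial nuclease, had -0.28 ± 0.07 (limma adjusted p = 0.00938), and Cradd, the adaptor of Casp2, -0.21 ± 0.09 (limma adjusted p = 0.0206). Without replicate 3 the adjusted p of Endog was 0.0769 and that of Cradd 0.110. That of Cradd was also above the threshold without replicate 1 (0.117) or 2 (0.0572).

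**Figure D5:**
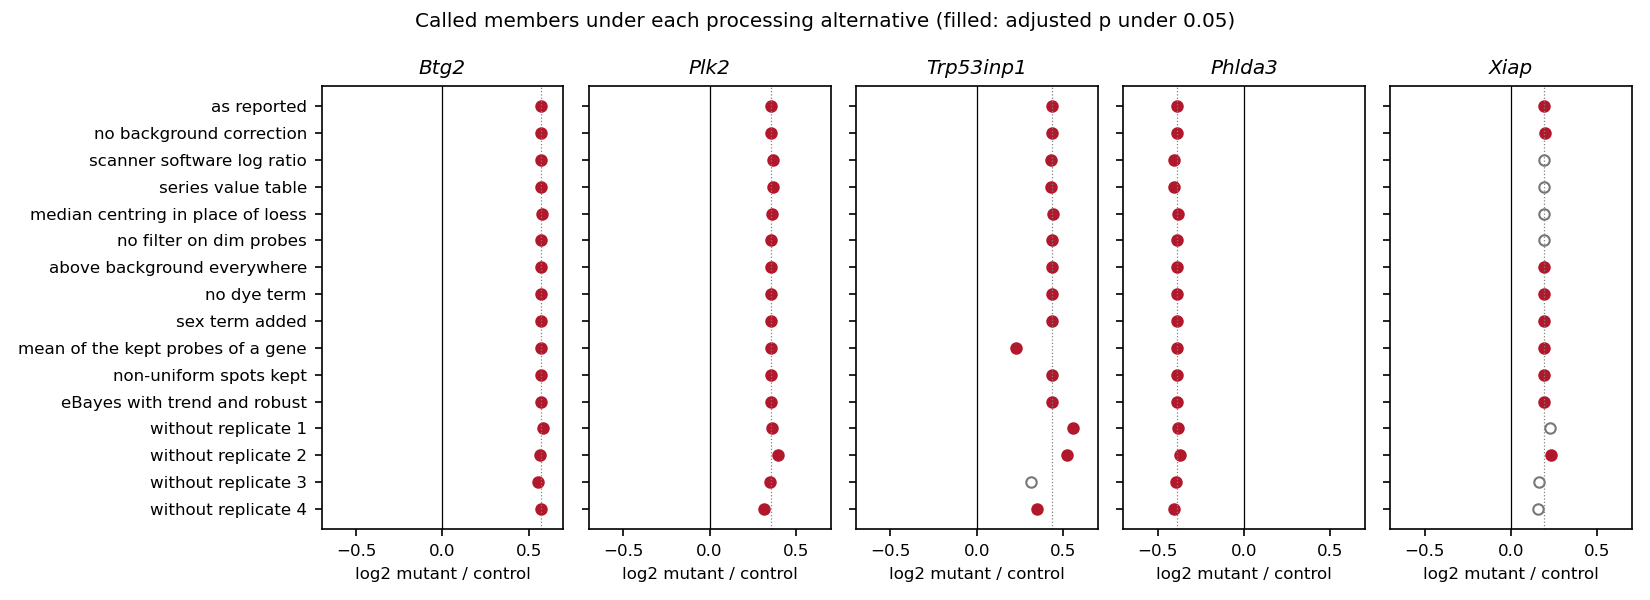
Log2 ratio of mutant over control for the 5 called genes as reported and under each of 15 alternatives, filled where the adjusted p was under 0.05. Btg2, Plk2 and Phlda3 are filled throughout, Trp53inp1 is open without replicate 3, and Xiap is open under 7.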

How the data were processed

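Total RNA was amplified, labelled with AlexaFluor555 or AlexaFluor647 and hybridised to 4 Agilent arrays on 1 slide, per the labels' protocols and the file headers. Spot and background intensities were read with Agilent Feature Extraction 10.7.3.1, per the submitters' processing notes, which also gave the log10 ratios of red over green, per the file headers. The deposited series value table gives the fold of mutant over control with a sign, a score here, of which 90.9% to 93.3% per array lay within 0.001 of the scanner's log2 ratios in the direction of the dye labels; the column medians were 1.

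Mean intensities were corrected with normexp (offset 50) and log2 ratios normalized by loess within arrays, in limma 3.58.1 under R 4.3.3. Non-uniform spots, 21 to 32 an array, were dropped, and 0 spots were saturated. Probes had to be measured on at least 3 arrays and well above background on 3 or more in 1 genotype's channel, which left 23186 of 39429 probes and 18416 genes. Names were updated through a RefSeq table (GRCm38.p6). Channel levels are log2 values after loess and Aquantile, and SDs are of the array ratios. The fit had genotype and dye terms (lmFit, eBayes, prior degrees of freedom 4.60, residual 2), with Benjamini-Hochberg adjustment over all genes and a threshold of 0.05. All arrays share 1 slide and scan, so no batch could be tested. In simulated data of 23186 probes, 100 of 100 changed 1.5-fold and 100 of 100 changed 2-fold were recovered, and 9 of 209 calls were unchanged probes. Every simulated probe had the same spread between arrays. No fold below 1.5 was simulated, and no tested member reached 1.5-fold, so recovery at the members' differences was not tested.

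The members and lists were chosen with earlier results of these data known. All members were named, with Tbx2, Tbx3 and from each further pathway list up to 4 called genes of smallest adjusted p; some genes under this rule are not reported here. Alternatives covered background correction, normalization, the scanner and series values, filters, dye and sex terms, moderation, probe rule, non-uniform spots and each array left out. Figures used matplotlib 3.10.9 under Python 3.11.15.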

Additional observations from a re-analysis of the deposited data

Results flagged for a closer look

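For Plk2, replicate 4 lay far from the other arrays, with a log2 ratio of mutant over control of 0.490, while the others lay between 0.29 and 0.32. Without replicate 4 the log2 ratio was 0.31 (limma adjusted p = 0.00852). Chance marks about 1 in 20 groups of 4 in this way, and the other members measured on 4 arrays had no such array.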

How the results depend on the processing

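Of 15 alternatives, each called gene kept its direction in all. Btg2, Plk2 and Phlda3 stayed past the threshold in all 15, Trp53inp1 in 14 and Xiap in 8. Of the genes from the wider lists, Bok kept its call in 6, Bcl2l15 in 9, Cradd in 11, Cdkn1a in 13, and Dcxr and Endog in 14. The caspase group had 0 higher genes with the scanner software's log ratios, the series value table, median centring or no filter on dim probes. The Bcl2 family median was -0.076 with the scanner's log ratios and with the series value table. With sex in the fit, 2 Bcl2 family genes were higher and 1 lower, while calls over all genes came to 3423 higher and 2643 lower, against 2481 and 1869 without it. With non-uniform spots kept 2 p53 group genes were lower, the second being Sesn2. Leaving out each array in turn gave 2 to 3 higher and 1 lower p53 group genes, 0 to 1 higher caspase group genes, 0 called Bcl2 family genes, and group medians of 0.00 to 0.03, -0.05 to -0.03 and 0.01 to 0.10 for the p53, Bcl2 and caspase groups, the caspase median being lowest without replicate 4. Over all genes it gave 1557 to 2492 higher and 1026 to 1787 lower, with 1146 lower without replicate 1 and both lowest counts without replicate 3. The causes were not tested. Each ratio sets the mutant against the control RNA of the same array, so the fit is already paired by array. Members near background (Fas, Eda2r) have no measured difference, and 4 arrays leave intervals that reach 0.36 in the Bcl2 family.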
